A study of Mus musculus with 16 samples.

Results

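The difference of the stroke response between the genotype labels was measured gene by gene in whole mouse brain. For each gene, the change from naive to stroke in C57BL/6 arrays was subtracted from the same change in the arrays labelled TNF knockout. A positive difference therefore means a larger increase, or a smaller decrease, in the arrays labelled TNF knockout. All 16 arrays of the series enter this contrast, as 4 groups of 4, and all 19938 genes that could be named were tested. Each gene is represented by 1 of the 28944 probe sets on the array: the one with the highest mean among those that carry a single gene symbol. The 4 groups are naive C57BL/6, C57BL/6 at 24 h after permanent middle cerebral artery occlusion (pMCAO, a model of ischaemic stroke), naive TNF knockout, and TNF knockout at 24 h after the occlusion. All mice were males of 8 weeks. Naive mice were not sham-operated, and a stroke change holds surgery and occlusion together, and the sources used here do not give how the knockout allele was made. The labels number 4 replicates per group without stating that each is a separate animal, so the p-values measure only the spread between these samples, which may be technical. Values are log2 expression, and changes are differences of log2 means with the standard error (SE) from limma.

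Tumour necrosis factor (TNF) is a cytokine that microglia and infiltrating myeloid cells release early after brain ischaemia, and its receptors signal to NF-kB and to cell death pathways. Interferon-stimulated genes respond to a separate set of cytokines: type I interferons act through their receptor on a short promoter element and turn on antiviral effectors such as the Mx, Oas and Ifit families. Both programmes are active in microglia, the resident macrophages of the brain, which in the resting state carry receptors such as Gpr34 and P2ry13 and after injury raise phagocytic genes such as Cd68.

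The arrays were alike in scale, with medians of 6.01 to 6.05 and correlations of 0.991 to 0.996 between arrays of 1 group. Naive C57BL/6 replicate 1 stood apart in the summed log2 values of 16 thalamus, hypothalamus and cerebellum markers. Its sum was 119.09, against 111.01 to 112.10 in the rest of its group. The median of its deviations from the group mean was only 0.04, and its tissue composition was not tested. Defining brain transcripts were high on every array: Snap25 read 12.05 to 12.35, Mbp 10.33 to 10.82 and Gfap 7.77 to 9.30. Tnf itself went against the label. It read 5.01, 5.72, 5.08 and 5.41 in naive C57BL/6 and 5.64, 5.28, 5.67 and 5.68 after stroke, against 6.14, 6.46, 6.47 and 6.58 in the naive arrays labelled TNF knockout and 6.75, 6.60, 6.99 and 6.88 in the stroke arrays with that label. Every array labelled TNF knockout was thus above every C57BL/6 array, and the sources used here do not give whether its probes lie in the deleted part, so Tnf cannot serve as a check of the label. The arrays are therefore called knockout-labelled below. The stroke change of Tnf was 0.26 in C57BL/6 and 0.39 in knockout-labelled arrays, a difference of 0.13 ± 0.20 (SE, limma adjusted p = 0.896, n = 4 per group) that was -0.02 within the prefix KL82 described next. The array names carry the prefix KL42 for all C57BL/6 arrays, KL76 for naive replicates 1 to 3 and stroke replicate 1 labelled TNF knockout, and KL82 for the other 4. What a prefix stands for is not stated. A constant offset between KL42 and the other prefixes cancels in this contrast, while one between KL76 and KL82 does not.

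No gene passed the threshold in the difference of the stroke changes. At an adjusted p under 0.05 (limma, Benjamini-Hochberg over 19938 genes) 0 genes were higher and 0 were lower, a share of 0 percent in each direction, and the smallest adjusted p was 0.0806, for Ifi202b. At an unadjusted p under 0.05, 1480 genes (7.42 percent) differed, 736 with a positive difference (3.69 percent) and 744 with a negative one (3.73 percent). These shares over all genes are the background for the counts of members below, which were not matched for expression level. The background itself depended on level. In the lowest of 5 equal bins by mean level 256 genes were positive and 50 negative at that unadjusted p, and in the highest 16 and 189. The median SE of the difference was 0.14, and the median 95% interval reached 0.29 to either side. The interval lay within 2-fold in both directions for 19798 genes, 99.3 percent of all. The count of 0 depended on single arrays. Without C57BL/6 naive replicate 2, 3 genes passed (Cpm, Ifi202b and Oasl2). Without naive replicate 4 labelled TNF knockout, 2 passed (Adat2 and Klk1b1), and 1 passed without stroke replicate 1 with that label (Ifi202b). Without stroke replicate 2 with that label, 2 passed (Irf7 and Trim13).

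**Figure D1:**
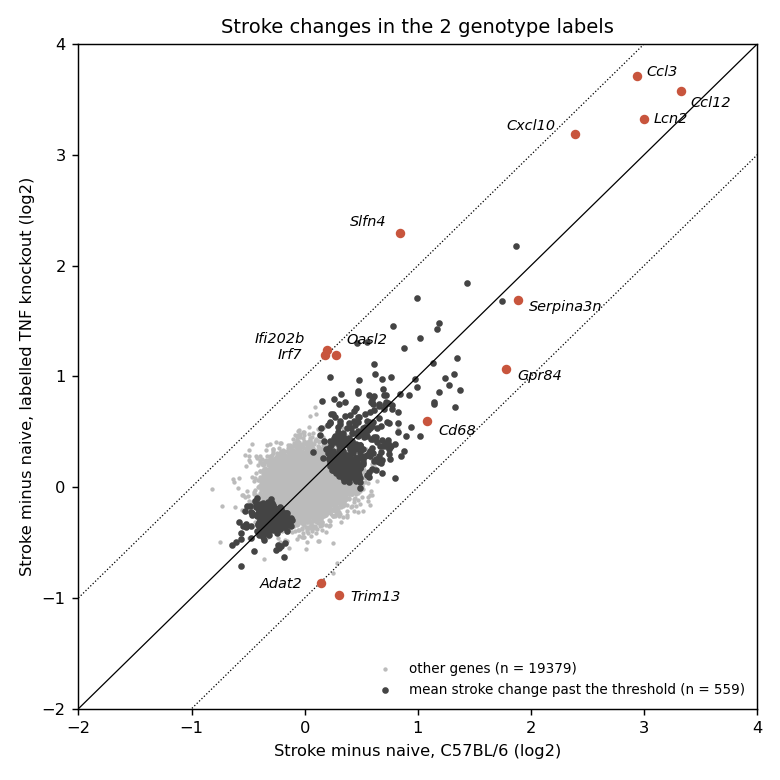
Stroke change of each of 19938 genes in C57BL/6 (x axis, log2) against that in knockout-labelled arrays (y axis, log2), with 559 genes past the threshold in the mean of both changes in dark grey and named genes in red. The solid line marks equal changes and the dotted lines a 2-fold difference; Ifi202b, Irf7 and Slfn4 lie above the upper dotted line, and Adat2 and Trim13 lie below the lower one.

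Genes chosen by the mean of both stroke changes nearly all moved in the same direction under both labels, which that choice favours. The mean of both stroke changes, which is independent of their difference in this balanced design, passed its threshold for 559 genes, 354 higher (1.78 percent) and 205 lower (1.03 percent). Of the 354 higher genes, 353 had an increase in each genotype. A large mean leaves little room for opposite directions, so that count does not test agreement. The median increase of the 354 genes was 0.44 in C57BL/6 and 0.35 in knockout-labelled arrays, and 235 of them (66.4 percent) had the larger increase in C57BL/6. Of these 354 genes 23 were higher and 61 lower in the difference at an unadjusted p under 0.05. The 24 genes whose mean increase was at least 2-fold did not share that lean: 11 had the larger increase in C57BL/6, and their median difference was 0.26. For the 205 decreases the median difference was 0.02, with 6 higher and 4 lower at an unadjusted p under 0.05.

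Ccl12, a ligand of the monocyte receptor Ccr2, had the largest increase in C57BL/6. It read 4.90, 4.29, 5.04 and 4.59 in naive and 7.56, 8.30, 8.64 and 7.62 in stroke C57BL/6 arrays, and 4.60, 4.53, 4.29 and 4.27 in naive and 7.95, 7.84, 8.13 and 8.09 in stroke knockout-labelled arrays. Both stroke groups lay far above both naive groups and overlapped each other. The increases were 3.33 and 3.58, a difference of 0.26 ± 0.27 (95% interval -0.31 to 0.82, limma adjusted p = 0.837). Lcn2, a siderophore-binding protein of reactive astrocytes and neutrophils, rose by 3.0 in C57BL/6 and 3.32 in knockout-labelled arrays (difference 0.32 ± 0.44). Lilr4b, an inhibitory myeloid receptor, had a difference of 0.32 ± 0.32, and Ptx3, a soluble pattern recognition protein, one of 0.41 ± 0.37. The astrocyte protease inhibitor Serpina3n rose by 1.89 and 1.69 (difference -0.20 ± 0.29), and the haem-degrading enzyme Hmox1 by 1.74 and 1.68 (difference -0.06 ± 0.32). None of these intervals excluded equal changes. The largest decreases were measured more tightly. Camkk2, a calcium-dependent kinase, fell by 0.60 in C57BL/6 and by 0.49 in knockout-labelled arrays (difference 0.11 ± 0.13, 95% interval -0.17 to 0.39). Differences for the phospholipid transfer protein Pltp (0.12 ± 0.17), the postsynaptic scaffold Shank1 (-0.15 ± 0.20) and the signalling adaptor Shc3 (-0.13 ± 0.15) were also smaller than their SE. The differences of Lcn2, Serpina3n, Hmox1, Shank1, Pltp and Shc3 changed sign within at least 1 of the prefixes KL76 and KL82. The synaptic zinc transporter Slc30a3 fell by 0.58 in C57BL/6, against a change of -0.32 in knockout-labelled arrays (difference 0.26 ± 0.12, limma adjusted p = 0.669).

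Interferon-stimulated genes had the highest median difference of the 42 lists. Of 30 members tested, 12 had a positive difference at an unadjusted p under 0.05 and 0 a negative one, 26 lay above 0, and the median was 0.29, against -0.005 over all genes. None passed the threshold after adjustment. In knockout-labelled arrays 16 of the 30 rose with stroke (background 0.537 percent), and in C57BL/6 4 did (background 1.34 percent). Expressed per array as the median deviation of the 30 genes from the naive C57BL/6 mean, stroke knockout-labelled arrays read 0.56, 0.23, 0.53 and 0.62, and stroke C57BL/6 arrays read 0.29, 0.16, 0.22 and 0.21. Naive knockout-labelled arrays read -0.16, -0.10, -0.17 and -0.10, and naive C57BL/6 arrays -0.04, 0.02, 0.03 and -0.03. The difference thus came from both sides: naive knockout-labelled arrays were below naive C57BL/6, and the stroke arrays were higher, apart from knockout-labelled stroke replicate 2, which lay within the C57BL/6 stroke range. The median difference was 0.37 without that array and 0.26 at its lowest, without stroke replicate 4 of the same label. It was 0.45 within prefix KL76 and 0.29 within KL82.

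Irf7, the transcription factor that amplifies type I interferon production, read 5.82, 5.65, 5.83 and 5.96 in naive and 5.94, 6.09, 6.09 and 5.85 in stroke C57BL/6 arrays. In knockout-labelled arrays it read 5.16, 5.65, 5.29 and 5.31 when naive and 6.75, 6.10, 6.59 and 6.73 after stroke. The stroke arrays with that label all lay above every other array, and its naive arrays reached up only to the lowest C57BL/6 array. Irf7 rose by 1.19 in knockout-labelled arrays (limma adjusted p = 3.0e-05), against 0.18 in C57BL/6 (adjusted p = 0.497), a difference of 1.01 ± 0.18 (adjusted p = 0.114). Oasl2, an oligoadenylate synthetase-like antiviral protein, read 6.16, 5.90, 6.34 and 6.29 in naive and 6.47, 6.38, 6.39 and 6.56 in stroke C57BL/6 arrays, and 5.82, 5.35, 5.68 and 5.92 in naive and 6.80, 6.73, 6.94 and 7.09 in stroke knockout-labelled arrays. Its stroke change was 0.28 in C57BL/6 and 1.20 in knockout-labelled arrays, a difference of 0.92 ± 0.17 (limma adjusted p = 0.114). Mx1, a dynamin-like antiviral GTPase, read low throughout. It read 3.32, 3.40, 3.57 and 3.46 in naive and 3.36, 3.43, 3.11 and 3.64 in stroke C57BL/6 arrays, and 3.08, 3.35, 3.27 and 3.30 in naive and 3.72, 3.73, 3.72 and 3.89 in stroke knockout-labelled arrays. Only the knockout-labelled stroke group stood apart for Mx1, with a difference of 0.57 ± 0.14 (limma adjusted p = 0.407).

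Members of the list differed among themselves. Rsad2 (viperin), an antiviral radical SAM enzyme, had a difference of 0.84 ± 0.33, and the RNA-binding antiviral proteins Ifit3 and Ifit1 had differences of 0.76 ± 0.21 and 0.71 ± 0.33. For these 3 genes naive arrays were alike under both labels, with genotype differences of -0.13, -0.07 and 0.01, so the difference lay on the stroke side. For Ifit1 it was 1.26 within prefix KL76 and 0.24 within KL82, and for Ifit3 1.09 and 0.50. The guanylate-binding GTPase Gbp3 had a difference of 0.45 ± 0.16, with a naive genotype difference of -0.34 and a stroke genotype difference of 0.11. Irgm1, an immunity-related GTPase, rose by 0.84 in C57BL/6 and 0.84 in knockout-labelled arrays, a difference of -0.01 ± 0.23 with a 95% interval of -0.47 to 0.47. Ifit3, Ifit1, Rsad2, Gbp3 and Irgm1 were named after their values were seen, to show the range. Psmb9, an interferon-inducible subunit of the immunoproteasome from the list of antigen presentation genes, had a difference of 0.43 ± 0.12. That list of 15 had 1 positive and 0 negative difference at an unadjusted p under 0.05 and a median of 0.12.

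The promoter element of this family is the interferon-stimulated response element, whose core was searched as GAAA, any 2 bases and GAAA again, on both strands, from 250 bases before to 50 after each gene's start in the RefSeq promoters of GRCm38.p6. Of 27025 promoters 3.99 percent held it. Promoters were on hand for 22 of the 30 members, and 13 of those held the core, with a median difference of 0.26, against 0.10 for the 9 without it. Irf7 and Oasl2, with the largest differences, were among the 9. The stretches with the core are shown for 4 members with a positive difference and for Irgm1, whose stroke changes were equal, to show that the same letters stand before genes on both sides. Each is written 5′ to 3′ on the gene's own strand, with the core or its reverse complement in capitals, at chr19:34583361-34583428 (plus strand) for Ifit3, chr19:34640773-34640825 (plus) for Ifit1, chr12:26456551-26456584 (minus) for Rsad2, chr3:142559987-142560026 (plus) for Gbp3 and chr11:48871423-48871462 (minus) for Irgm1.
Ifit3: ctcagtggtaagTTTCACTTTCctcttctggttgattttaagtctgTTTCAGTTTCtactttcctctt
Ifit1: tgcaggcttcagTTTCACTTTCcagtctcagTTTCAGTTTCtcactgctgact
Rsad2: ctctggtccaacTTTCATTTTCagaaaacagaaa
Gbp3: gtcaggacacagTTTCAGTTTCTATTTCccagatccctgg
Irgm1: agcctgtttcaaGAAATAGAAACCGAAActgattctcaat
In Ifit3, Ifit1 and Gbp3 the core occurs 2 times, as it does in Irgm1, so neither its presence nor its number separates Irgm1 from the others. These matches are letters in a window and not measured binding.

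Ifi202b and Slfn4 are interferon-inducible too, and their differences were the largest of the positive ones. Ifi202b, a cytosolic DNA-binding protein of the HIN-200 family, read 2.70, 2.71, 3.08 and 2.73 in naive and 2.96, 2.91, 3.18 and 2.96 in stroke C57BL/6 arrays. In knockout-labelled arrays it read 3.0, 2.88, 2.96 and 2.86 when naive and 3.78, 4.26, 4.18 and 4.43 after stroke. The first 3 groups lay between 2.70 and 3.18, near the bottom of the range of the array, and the knockout-labelled stroke group lay clear above them. The difference was 1.04 ± 0.16 (limma adjusted p = 0.0806, 95% interval 0.70 to 1.38), with 0.64 within prefix KL76 and 1.23 within KL82. Slfn4, a Schlafen gene of monocytes and macrophages, had the largest positive difference of all genes, 1.45 ± 0.38 (limma adjusted p = 0.434). It read 4.51, 3.89, 4.69 and 4.34 in naive and 4.90, 5.66, 5.82 and 4.42 in stroke C57BL/6 arrays, and 4.52, 3.99, 4.04 and 4.09 in naive and 6.68, 5.84, 7.07 and 6.22 in stroke knockout-labelled arrays. The naive groups overlapped, the stroke groups did not, and the spread of C57BL/6 stroke arrays was 0.66 (SD). The list of Schlafen and other myeloid interferon-induced genes had a median of 0.13 over 12 members, and Slfn4 was the only one at an unadjusted p under 0.05.

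**Figure D2:**
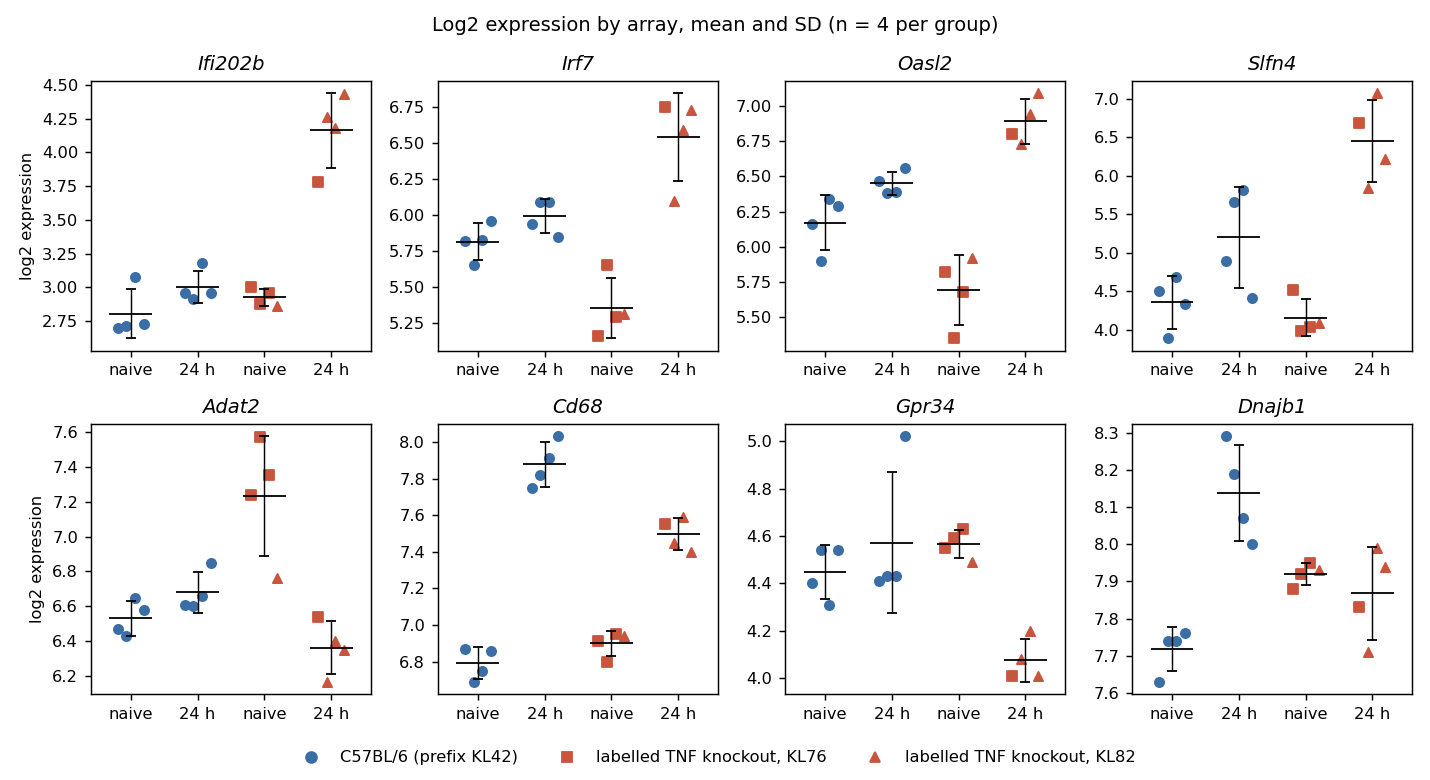
Log2 expression of 8 genes on each of 16 arrays, with the mean (bar) and SD (whiskers) of each group of 4: naive and 24 h after stroke in C57BL/6 (blue circles), then naive and 24 h labelled TNF knockout (red, squares for prefix KL76 and triangles for KL82). Ifi202b, Irf7, Oasl2 and Slfn4 are highest in stroke knockout-labelled arrays; Cd68 and Dnajb1 are highest in the stroke arrays of C57BL/6.

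Chemokines leaned the same way, with less weight. Of 25 CC and CXC ligands 3 had a positive difference at an unadjusted p under 0.05 and 0 a negative one, 21 lay above 0, and the median was 0.13 (0.28 within prefix KL76 and 0.18 within KL82). The median level of the list was 5.27. In the level bin from 4.42 to 5.73, 65.6 percent of all genes lay above 0, and 287 of 3987 were positive at that p. The 3 were the monocyte attractants Ccl2 (0.50 ± 0.22) and Ccl7 (0.41 ± 0.14) and the T cell attractant Ccl5 (0.54 ± 0.23). Ccl2 read 4.94, 5.31, 5.61 and 5.04 in stroke C57BL/6 arrays and 5.88, 5.32, 5.42 and 5.38 in stroke knockout-labelled arrays, and Ccl7 read 5.0, 5.17, 5.34 and 5.41 against 5.71, 5.38, 5.54 and 5.53. For both genes the stroke groups overlapped. Cxcl10, an interferon-inducible attractant of T cells, rose by 2.39 in C57BL/6 and 3.19 in knockout-labelled arrays (difference 0.80 ± 0.39, limma adjusted p = 0.677). Stroke C57BL/6 arrays read 8.19, 6.51, 7.28 and 7.21 for Cxcl10, and stroke knockout-labelled arrays read 8.62, 7.16, 8.31 and 8.09. Ccl3, made by activated microglia, had a difference of 0.77 ± 0.44, with 1.46 within prefix KL76 and 0.43 within KL82, and for Cxcl10 these values were 1.47 and 0.29. Stroke replicate 1, the only knockout-labelled stroke array of prefix KL76, was the highest of its group for both genes. Chemokine receptors had 0 of 10 members at an unadjusted p under 0.05.

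Of 22 TNF ligands, receptors and adaptors 1 had a positive and 2 a negative difference at an unadjusted p under 0.05, with a median of 0.05. Counts this small are near the background shares of 3.69 and 3.73 percent, and nothing is read from them about the pathway. Tnfrsf12a, the receptor of the ligand TWEAK, had a difference of 0.37 ± 0.14. Adam17, the sheddase that releases soluble TNF, had one of -0.32 ± 0.12, and Cflar, an inhibitor of caspase-8, had one of -0.34 ± 0.13. Cflar was read by other probe sets too, whose differences were -0.23 and 0.13. Among 18 NF-kB genes 2 were positive and 0 negative at an unadjusted p under 0.05. The 2 were Bcl3, a nuclear co-regulator of NF-kB (0.41 ± 0.15), and Nfkbiz, another (0.32 ± 0.15). Of 17 genes of the interleukin-6 family and its signalling 2 were positive and 1 negative at that p, led by the cytokine Clcf1 (0.54 ± 0.14). Clcf1 read 5.02 to 5.37 in naive and 5.45 to 5.75 in stroke knockout-labelled arrays, against 5.36 to 5.55 and 5.20 to 5.49 in C57BL/6. None of these genes passed the threshold after adjustment.

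Microglial genes lay on the other side. Of 13 homeostatic microglia markers 0 had a positive and 3 a negative difference at an unadjusted p under 0.05, 2 lay above 0, and the median was -0.31, the lowest of the lists. This median differed between the name prefixes: it was -0.45 within KL76 and -0.028 within KL82, and -0.27 with the prefix as a term in the fit. In bulk tissue, fewer microglia and less RNA per microglial cell cannot be told apart. Gpr34, a lysophospholipid receptor, read 4.40, 4.54, 4.31 and 4.54 in naive and 4.41, 4.43, 4.43 and 5.02 in stroke C57BL/6 arrays. In knockout-labelled arrays it read 4.55, 4.59, 4.63 and 4.49 when naive and 4.01, 4.08, 4.20 and 4.01 after stroke. It fell by 0.49 in knockout-labelled arrays (limma adjusted p = 0.0459), where stroke arrays lay below all others, and the difference was -0.61 ± 0.16 (limma adjusted p = 0.434). The ADP receptor P2ry13 had a difference of -0.49 ± 0.19 and Csf1r, the receptor that keeps microglia alive, one of -0.36 ± 0.14, with -0.62 within prefix KL76 and -0.12 within KL82. As a median over the 13 markers, the deviation from naive C57BL/6 was -0.04 to 0.27 in stroke C57BL/6 arrays and -0.24 to -0.06 in stroke knockout-labelled arrays, which did not overlap. The naive arrays overlapped, at -0.05 to 0.09 with the knockout label and -0.055 to 0.09 in C57BL/6. The list median was -0.37 to -0.17 when single arrays were left out, and the value closest to 0 came without stroke C57BL/6 replicate 4.

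Of 22 genes of activated microglia and macrophages 8 rose with stroke in C57BL/6 and 7 in knockout-labelled arrays, and the leading ones had the smaller increase under the knockout label. In the difference 1 had a positive and 4 a negative difference at an unadjusted p under 0.05, and the median was -0.18. The median was closer to 0 within each prefix, at -0.07 within KL76 and -0.11 within KL82, and 2 members were negative at that level after cyclic loess between arrays. Likewise 2 were without naive C57BL/6 replicate 1, stroke C57BL/6 replicate 4, naive knockout-labelled replicate 3 or stroke knockout-labelled replicate 2. Cd68, a lysosomal glycoprotein of phagocytes, read 6.87, 6.69, 6.75 and 6.86 in naive and 7.75, 7.82, 7.91 and 8.03 in stroke C57BL/6 arrays, and 6.91, 6.80, 6.95 and 6.94 in naive and 7.55, 7.45, 7.59 and 7.40 in stroke knockout-labelled arrays. Naive groups overlapped and stroke groups did not. Cd68 rose by 1.09 in C57BL/6 (limma adjusted p = 1.9e-07) and by 0.60 in knockout-labelled arrays (adjusted p = 0.00037), a difference of -0.49 ± 0.11 (adjusted p = 0.407). Gpr84, a receptor of medium-chain fatty acids induced on activated myeloid cells, rose by 1.78 in C57BL/6 and by 1.07 in knockout-labelled arrays. Stroke arrays read 6.91, 7.36, 7.62 and 7.07 in C57BL/6 and 6.61, 6.69, 6.74 and 6.33 with the other label for Gpr84, and its difference was -0.72 ± 0.25 (limma adjusted p = 0.561). Pglyrp1, a peptidoglycan-binding protein of neutrophil granules, rose by 0.80 in C57BL/6 (limma adjusted p = 0.0016), against 0.08 in knockout-labelled arrays (adjusted p = 0.943), a difference of -0.72 ± 0.17 (adjusted p = 0.407). Markers of neutrophils and infiltrating monocytes as a list, which does not hold Pglyrp1, had 0 of 19 members at an unadjusted p under 0.05 and a median of 0.11, and lymphocyte markers 0 of 15 and 0.08.

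Complement genes leaned the same way as microglial ones. Of 15 members 0 had a positive and 3 a negative difference at an unadjusted p under 0.05, 3 lay above 0, and the median was -0.18 (-0.23 within prefix KL76 and -0.16 within KL82). C3ar1, the receptor of the anaphylatoxin C3a, rose by 1.33 in C57BL/6 and by 0.73 in knockout-labelled arrays (difference -0.60 ± 0.22, limma adjusted p = 0.583). C1qc, a chain of the initiating C1q complex, read 7.79, 7.83, 8.08 and 8.13 in naive and 8.35, 8.36, 8.34 and 8.51 in stroke C57BL/6 arrays. With the other label it read 7.90, 7.77, 7.79 and 7.52 when naive and 7.47, 7.75, 8.00 and 7.74 after stroke, so only the C57BL/6 stroke arrays stood apart (difference -0.44 ± 0.16, with -0.78 within prefix KL76 and -0.12 within KL82). Itgb2, the shared chain of the complement receptors CR3 and CR4, had a difference of -0.39 ± 0.15. As a median over the 15 genes, stroke C57BL/6 arrays lay 0.32 to 0.47 above naive C57BL/6, and stroke knockout-labelled arrays read -0.02 to 0.23. C3ar1, C1qc and Itgb2 are made by microglia and other myeloid cells, whose markers moved the same way, and the part of the cell numbers in these values was not tested.

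**Figure D3:**
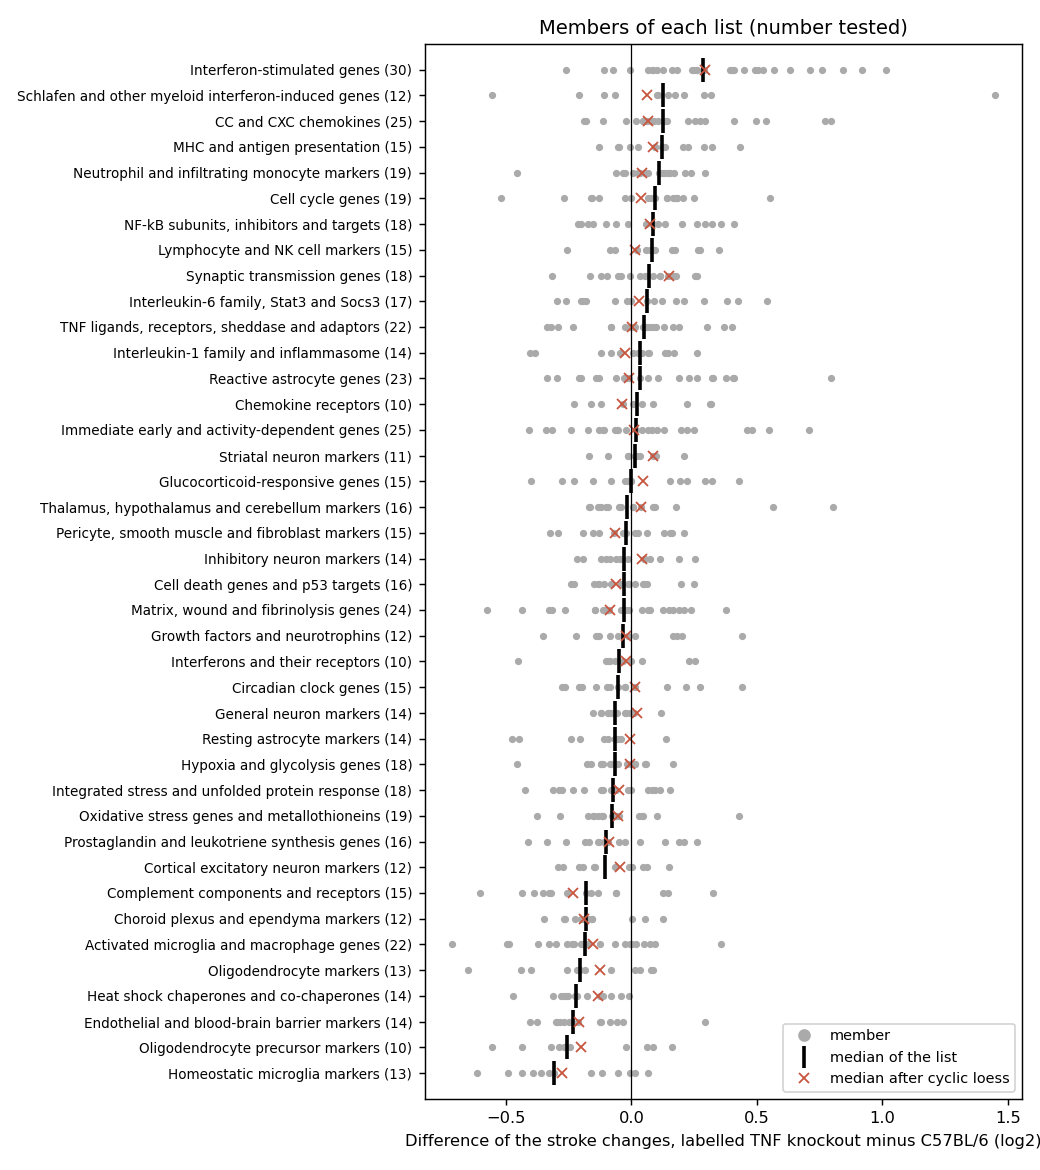
Difference of the stroke changes (x axis, log2) for the members of each list (grey points), with the list median (black bar) and the median after cyclic loess between arrays (red cross); numbers in brackets give the genes tested. Interferon-stimulated genes are at the top with a median of 0.29, and homeostatic microglia markers are at the bottom with -0.31; all 14 heat shock genes lie below 0.

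Oligodendrocyte lineage, endothelial and heat shock genes had negative medians as well. Of 10 oligodendrocyte precursor markers 4 had a negative difference at an unadjusted p under 0.05 and 0 a positive one, with a median of -0.26. The median was -0.36 within prefix KL76 and -0.059 within KL82. Negative members at an unadjusted p under 0.05 numbered 2 after cyclic loess. They also numbered 2 without naive C57BL/6 replicate 1, stroke C57BL/6 replicate 4 or stroke knockout-labelled replicate 1 or 3. Gpr17, a receptor of committed precursors, read 6.94, 7.02, 7.38 and 7.18 in naive and 7.43, 7.66, 7.26 and 7.41 in stroke C57BL/6 arrays, and 7.33, 7.09, 7.27 and 6.96 in naive and 6.87, 7.02, 6.90 and 6.88 in stroke knockout-labelled arrays. The stroke groups did not overlap, and the difference was -0.56 ± 0.15 (limma adjusted p = 0.434). The sialidase Neu4, also of precursors, had a difference of -0.44 ± 0.16. Of 13 markers of mature oligodendrocytes 2 were negative at an unadjusted p under 0.05, and 4 lay above 0. The 2 were the cytoskeletal protein Ermn (-0.65 ± 0.28) and the myelin protein Mobp (-0.44 ± 0.18), and the list median was -0.21. The count of negative members at that p was 0 without naive C57BL/6 replicate 1 or stroke C57BL/6 replicate 3. Of 14 endothelial markers 3 were negative at an unadjusted p under 0.05, and 1 lay above 0. Among the 3 were the tight junction protein Cldn5 (-0.40 ± 0.16) and the lipid transporter Mfsd2a of the blood-brain barrier (-0.38 ± 0.16). The list median was -0.23 (-0.19 within prefix KL76 and -0.22 within KL82). The count at that p moved with the setting: 1 was negative and 1 positive after cyclic loess and with the prefix as a term. With single arrays left out 1 to 5 were negative at that p. The negative count was 1 without naive C57BL/6 replicate 1, stroke C57BL/6 replicate 4, naive knockout-labelled replicate 3 or stroke knockout-labelled replicate 2 or 3. Mfsd2a rose by 0.66 in C57BL/6, against 0.28 with the other label.

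All 14 heat shock chaperones and co-chaperones had a difference below 0, with a median of -0.22 (-0.32 within prefix KL76 and -0.13 within KL82), of which 2 were at an unadjusted p under 0.05. Dnajb1, a co-chaperone of Hsp70, read 7.63, 7.74, 7.74 and 7.76 in naive and 8.29, 8.19, 8.07 and 8.00 in stroke C57BL/6 arrays, and 7.88, 7.92, 7.95 and 7.93 in naive and 7.83, 7.71, 7.99 and 7.94 in stroke knockout-labelled arrays. It rose by 0.42 in C57BL/6 (limma adjusted p = 0.0109), against a change of -0.05 with the other label (adjusted p = 0.935), and its difference was -0.47 ± 0.11 (adjusted p = 0.407). The naive groups did not overlap, so part of this difference lay in the naive arrays. The Hsp70 co-chaperones Dnajb4 and Dnaja1 had differences of -0.26 ± 0.12 and -0.28 ± 0.13. These transcripts are abundant, and the median difference over the most abundant 20 percent of genes was -0.07. After cyclic loess between arrays, which removes such a shift, the heat shock median was -0.13, with all 14 members still below 0.

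Reactive astrocyte genes showed little net difference. Of 23 reactive astrocyte genes 12 rose with stroke in C57BL/6 and 12 in knockout-labelled arrays, and the list had a median difference of 0.03 and 1 member at an unadjusted p under 0.05. Of 14 resting astrocyte markers 1 lay above 0, and the list median was -0.07, or -0.007 after cyclic loess. Their median level was 9.40, and all genes in the highest of 5 bins by level had a median difference of -0.07. At an unadjusted p under 0.05, 2 were negative: the gap junction protein Gjb6 and the fatty acid-binding protein Fabp7 (-0.45 ± 0.19). Gjb6 rose by 0.57 in C57BL/6 against 0.10 with the other label (difference -0.48 ± 0.16). Other named genes from the lists with negative differences were Ifngr1, a chain of the interferon gamma receptor (-0.45 ± 0.13), Anxa1, a resolution mediator (-0.57 ± 0.21), and Mmp14, a membrane-bound matrix protease (-0.44 ± 0.14). Ifngr1 read 7.82, 7.91, 7.88 and 8.14 in stroke C57BL/6 arrays and 7.39, 7.63, 7.70 and 7.64 in stroke knockout-labelled arrays, without overlap.

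Among neuronal lists, cortical excitatory markers had the most negative median. Of 12 of them 2 had a negative difference at an unadjusted p under 0.05 and 0 a positive one, the transcription factors Rorb (-0.29 ± 0.12) and Tbr1 (-0.27 ± 0.13), both named after their values were seen, and the median was -0.11. It was -0.17 within prefix KL76 and -0.00042 within KL82, and 0 were negative at that level without naive C57BL/6 replicate 4, stroke C57BL/6 replicate 2 or naive knockout-labelled replicate 3. Of 14 general neuron markers, 14 inhibitory and 11 striatal ones 0 were at an unadjusted p under 0.05, with medians of -0.07, -0.03 and 0.02. Of 18 synaptic transmission genes 1 was positive and 1 negative at that p, the latter the postsynaptic scaffold Homer1 (-0.32 ± 0.15, and 0.01 within prefix KL82). Of 25 immediate early genes 3 were positive and 3 negative at that p, with a median of 0.02. Npas4, a transcription factor induced by neuronal calcium entry, read 6.57, 6.67, 6.74 and 6.59 in naive and 5.81, 6.15, 6.03 and 6.06 in stroke C57BL/6 arrays, and 6.45, 6.06, 6.04 and 6.27 in naive and 6.20, 6.13, 6.83 and 5.97 in stroke knockout-labelled arrays. It fell by 0.63 in C57BL/6 (limma adjusted p = 0.0265) against a change of 0.08 with the other label, a difference of 0.71 ± 0.20 (adjusted p = 0.471). The naive knockout-labelled arrays already lay below naive C57BL/6. The same held for Junb, an AP-1 subunit, with naive readings of 6.07, 6.09, 6.14 and 6.22 in C57BL/6 and 5.81, 5.42, 5.64 and 5.57 with the other label, a stroke genotype difference of 0.03 and a difference of 0.55 ± 0.15.

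The 24 named genes with the smallest p in the difference, from which 1 unnamed gene model was left out, were 12 with a positive and 12 with a negative difference, of 0.39 to 1.04 in size, at adjusted p-values of 0.0806 to 0.407 (limma). For 23 of them the genotype difference had opposite signs in naive and in stroke arrays, and for 18 the stroke changes themselves had opposite signs. Choosing genes by this difference favours opposite signs in both comparisons, so nothing is read from these counts. All 24 kept their sign with the name prefix as a term in the fit and within either prefix. These fits reuse the arrays that chose the genes, so the kept signs are no independent check. Either prefix alone also leaves 1 knockout-labelled array in 1 group. Of the 12 with a positive difference 9 belonged to the 40 percent of genes with the lowest level, against 1 of the 12 with a negative one. Those 9 include the odorant and pheromone receptors Olfr17, Olfr531 and Vmn1r226, the hair keratin Krt32 and the kallikrein Klk1b1, genes best known from other tissues than brain. Klk1b1 read 3.14, 3.26, 3.35 and 3.04 in naive and 2.68, 2.73, 2.61 and 2.79 in stroke C57BL/6 arrays, and 2.86, 2.78, 2.68 and 3.18 in naive and 3.37, 2.99, 3.14 and 3.12 in stroke knockout-labelled arrays. Its levels are near the bottom of the range of the array, and its difference was 0.78 ± 0.15 (limma adjusted p = 0.18).

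**Figure D4:**
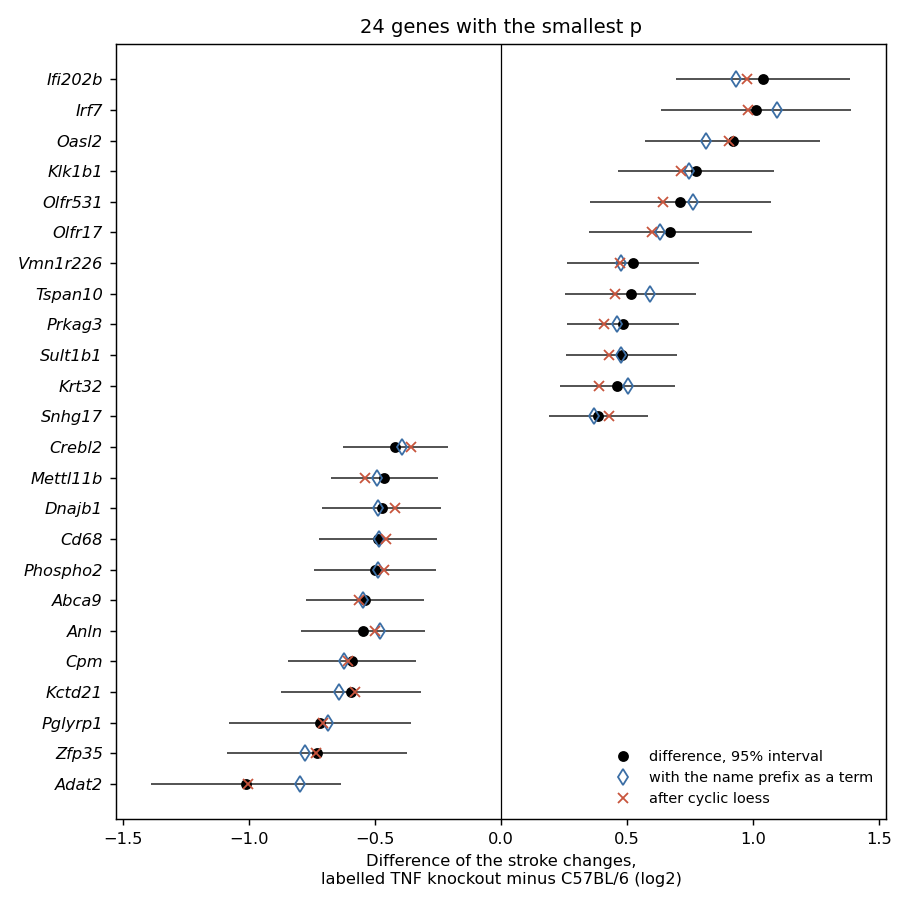
Difference of the stroke changes (x axis, log2) for the 24 named genes with the smallest p, with its 95% interval (black), the value with the name prefix as a term (blue diamonds) and the value after cyclic loess (red crosses). All 24 stay on their side of 0 in each of the 3 fits, and Adat2 moves most with the prefix, from -1.01 to -0.80. The genes were chosen by this difference in the same arrays, which favours kept signs.

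Adat2, the catalytic subunit of a tRNA adenosine deaminase, had the most negative difference among the 24. It read 6.47, 6.43, 6.65 and 6.58 in naive and 6.61, 6.60, 6.66 and 6.85 in stroke C57BL/6 arrays. In knockout-labelled arrays it read 7.24, 7.57, 7.35 and 6.76 when naive and 6.54, 6.17, 6.40 and 6.35 after stroke. The naive arrays of that label lay above naive C57BL/6 and its stroke arrays below stroke C57BL/6. Adat2 fell by 0.86 in knockout-labelled arrays (limma adjusted p = 0.0010), against a change of 0.15 in C57BL/6, a difference of -1.01 ± 0.18 (adjusted p = 0.114). Naive replicate 4, the only naive array of prefix KL82, was the lowest of its group, and the difference was -0.99 within KL76 and -0.60 within KL82. Anln, an actin-binding protein of myelinating oligodendrocytes and dividing cells, rose by 0.68 in C57BL/6 (limma adjusted p = 0.00014) against 0.13 with the other label, a difference of -0.55 ± 0.12 (adjusted p = 0.372). Stroke arrays read 8.15, 8.11, 8.29 and 8.15 in C57BL/6 and 7.85, 7.75, 7.63 and 7.68 with the other label for Anln, without overlap. The transporter Abca9 (-0.54), the tetramerisation-domain protein Kctd21 (-0.59), the phosphatase Phospho2 (-0.50), the zinc finger protein Zfp35 (-0.73) and the transcription factor Crebl2 (-0.42) were the other negative ones not yet described, with Cpm and Mettl11b below. Tspan10, a tetraspanin, was positive (0.52).

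Trim13, an endoplasmic reticulum ubiquitin ligase named after its values were seen, had the most negative difference of all genes, -1.28 ± 0.40 (limma adjusted p = 0.534). It read 6.91, 7.10, 7.32 and 7.78 in stroke C57BL/6 arrays and 5.06, 6.94, 5.22 and 5.64 in stroke knockout-labelled arrays. Stroke replicate 2 of that label stood far above the other 3 arrays, at the level of naive C57BL/6, and without it the difference was -1.69 (limma adjusted p = 0.0221).

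Opposite stroke changes were rare among genes whose groups separated. For 219 genes stroke and naive arrays did not overlap in either genotype, 1.1 percent of all genes tested, and 211 of them moved the same way under both labels. The 8 others were Cpm, Sult1b1, Prkag3, Mettl11b, Snhg17, Rnf138, Barhl1 and 1 unnamed gene model, of which Rnf138 and Barhl1 were named after their values were seen. Cpm, a carboxypeptidase that trims peptides at the cell surface, read 5.88, 6.24, 5.79 and 5.93 in naive and 6.45, 6.25, 6.40 and 6.42 in stroke C57BL/6 arrays, and 6.26, 6.33, 6.31 and 6.38 in naive and 6.12, 6.19, 6.13 and 6.16 in stroke knockout-labelled arrays. It rose by 0.42 in C57BL/6 (limma adjusted p = 0.016), against a change of -0.17 with the other label, a difference of -0.59 ± 0.12 (adjusted p = 0.34). Prkag3, a regulatory subunit of AMP-activated protein kinase, went the other way, from 5.08 to 5.12 in naive to 4.57 to 4.89 in stroke C57BL/6 arrays, and from 4.76 to 4.82 in naive to 4.85 to 4.98 in stroke knockout-labelled arrays (difference 0.49 ± 0.11). The RNA host gene Snhg17 had a difference of 0.39 ± 0.09 by the probe set used and of 0.01 and 0.19 by its other probe sets. The sulfotransferase Sult1b1 (0.48) and the homeobox gene Barhl1 (0.63) were positive, and the methyltransferase Mettl11b (-0.46) and the ubiquitin ligase Rnf138 (-0.53) were negative.

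The difference depended on the expression level of a gene. With the genes sorted into 5 equal bins by mean level, from lowest to highest, the median difference was 0.07, 0.07, -0.01, -0.05 and -0.07. At an unadjusted p under 0.05 the lowest bin held 256 genes with a positive and 50 with a negative difference, and the highest bin held 16 and 189. Most of this lay in the naive arrays. The genotype difference had medians of -0.08, -0.09, 0.01, 0.06 and 0.06 by bin in naive arrays and of -0.02, -0.01, 0.01, 0.00 and -0.02 in stroke arrays. Cyclic loess between arrays, which removes such level-dependent shifts and was added after the trend was seen, brought the medians to 0.01, 0.01, -0.01, -0.01 and 0.00, and left 585 genes with a positive (2.93 percent) and 715 with a negative difference (3.59 percent) at an unadjusted p under 0.05. The list medians after it were 0.29 for interferon-stimulated genes, with 11 positive and 0 negative members at that level, 0.07 for chemokines, -0.28 for homeostatic microglia, -0.23 for complement, -0.20 for oligodendrocyte precursors, -0.12 for oligodendrocytes and -0.21 for endothelium. Chemokine, oligodendrocyte and heat shock medians thus moved toward 0, and those of interferon-stimulated genes and complement did not.

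**Figure D5:**
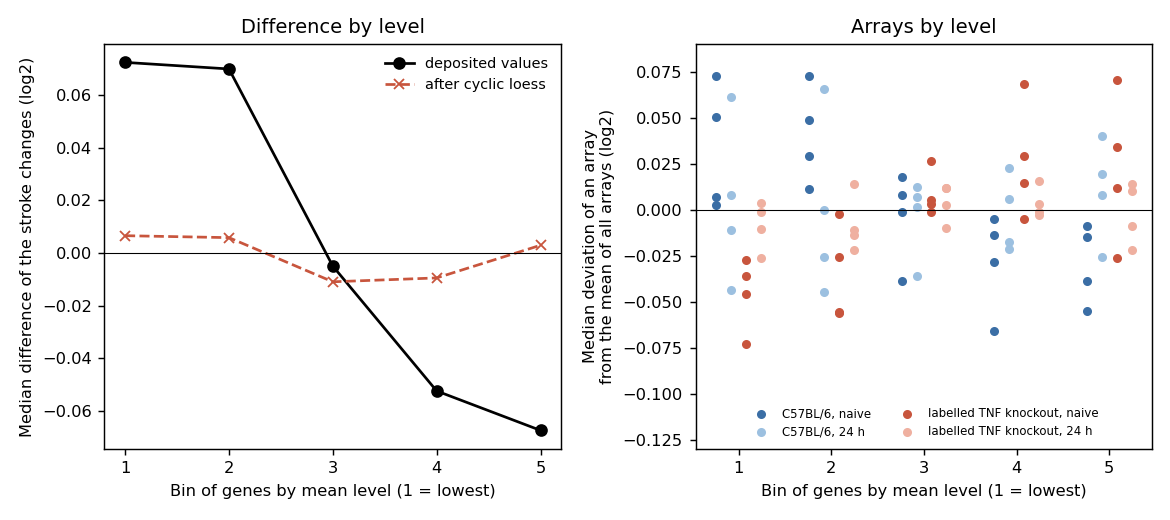
Left, the median difference of the stroke changes (log2) in each of 5 bins of genes by mean level, for deposited values (black) and after cyclic loess (red): 0.07 in the lowest bin and -0.07 in the highest before, near 0 after. Right, the median deviation of each of 16 arrays from the mean of all arrays in the same bins; in the lowest bin the naive C57BL/6 arrays lie above 0 and naive knockout-labelled arrays below it.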

How the data were processed

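Gene expression was measured in 16 whole-brain samples, 4 per group, with Affymetrix Mouse Gene 1.0 ST arrays, per the labels. Per probe set, the authors deposited 1 log2 value per array, rounded to 2 decimals and already normalized between arrays, as the near-equal medians show. The tools GCOS, RMA, GCRMA and Partek are named in the submitters' processing notes, and their roles and versions are not given in the sources used here. GEO's platform annotation gave 21789 probe sets 1 symbol, 1621 several and 5534 none, and 999 genes had several single-symbol probe sets. Dim probe sets were kept.

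A model of 4 group means was fitted with limma 3.58.1 in R 4.3.3 (12 residual and 7.52 prior degrees of freedom), two-sided, with Benjamini-Hochberg adjustment and a threshold of 0.05. The number of arrays limits the precision. The scripts were tested on simulated data.

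The contrast, the 42 lists (18 of cell type markers, 661 of 730 memberships matched) and the rules were chosen with earlier results of these data known. The text names Tnf, the 24 genes with the smallest p, the 10 largest increases and 5 largest decreases of the mean stroke change, and up to 3 members per list with the smallest p. Trim13, Ifit3, Ifit1, Rsad2, Gbp3, Irgm1, Rnf138 and Barhl1 fall outside that rule. Rorb and Tbr1 meet it but were added after their values were seen. Alternatives were median centring, quantile normalization, a filter on the genes with the lowest means, other rules for probe sets, trended or robust variances, array weights, other thresholds, the replicate number as a block, the name prefix as a term or as a filter, and each array left out. Cyclic loess was added after seeing the data. Replicate numbers were not used to pair the samples in the main fit. Deviations of same-numbered arrays from different groups correlated at -0.07 to 0.34 over 24 pairs, with a median of 0.09. For arrays with other numbers the median was -0.04. These values do not settle whether the numbers pair the samples. Figures were drawn with Python 3.11.15 and matplotlib 3.10.9.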

Additional observations from a re-analysis of the deposited data

Results flagged for a closer look

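In 22 of 328 groups of 4 arrays, over 82 genes examined for the text, 1 array stood apart from the other 3 by a gap above Dixon's critical value, where chance flags about 1 in 20 groups. Rorb and Tbr1 were not among the 82. In naive C57BL/6 the arrays were Ifi202b at 3.08 (others 2.70 to 2.73), Phospho2 at 7.22, Dnajb1 at 7.63 and Clcf1 at 5.36. In stroke C57BL/6 they were Tnf at 5.28 (others 5.64 to 5.68), Mettl11b at 4.83, Olfr531 at 3.34, Shank1 at 8.29, Gpr34 at 5.02 (others 4.41 to 4.43), C1qc at 8.51, Rsad2 at 6.04 and Rnf138 at 7.39. In naive knockout-labelled arrays they were Anln at 7.82, Ccl3 at 5.27, Bcl3 at 5.67, Homer1 at 9.24 and Barhl1 at 4.66. In stroke knockout-labelled arrays they were Mx1 at 3.89, Serpina3n at 10.19 (others 9.32 to 9.38), Lilr4b at 5.18, C3ar1 at 6.45 and Neu4 at 5.5. Replicate 2 was the array in question for Lilr4b, C3ar1 and Neu4. Tied values bring the gap ratio to its highest value, however small the gap. The other 3 arrays all read 4.85 for Mettl11b, so its flag rests on rounding, and all read 5.1 for Ccl3.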

How the results depend on the processing

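No gene passed in the difference with quantile normalization, median centring, cyclic loess, the dimmest genes left out, probe sets of a gene averaged, every probe set tested, trended or robust variance, a threshold of 0.01, the name prefix as a term, or either prefix alone. With array weights 1 gene passed (Ifi202b), and 1 did at an adjusted p under 0.1 (Ifi202b). With the replicate block 1 gene passed (Oasl2, adjusted p = 0.0168). Whether the numbers mark samples handled together is not stated, and the cause was not tested. Leaving out single arrays gave 0 to 3 genes. Genes past the threshold in the mean stroke change numbered 559, against 332 with the prefix as a term and 369 to 629 with single arrays left out. They numbered 765 with the replicate block, 768 with array weights, 760 with trended variance and 731 without the dimmest genes. The prefix term uses 1 more degree of freedom, and the reasons for these shifts were not tested. Genes at an unadjusted p under 0.05 in the difference numbered 981 to 2350 over all settings. Some differences changed sign. With the prefix as a term Shank1 was 0.13. Within KL76 Shank1 was 0.063, Serpina3n 0.49 and Pltp -0.044. Within KL82 Tnf was -0.019, Lcn2 -0.083, Hmox1 0.11, Shank1 0.19, Shc3 0.20 and Homer1 0.01. With single arrays left out Tnf ran from -0.0083 to 0.23, Hmox1 from -0.27 to 0.14, Lilr4b from -0.01 to 0.57 and Irgm1 from -0.13 to 0.16. The median interval of 0.29 to either side holds for a gene taken alone, without adjustment, and is not a detection limit of the adjusted test. Under the settings used in the Results no gene passed, with differences from -1.28 to 1.45. Ifi202b, at 1.04, had a limma adjusted p of 0.0806. With 4 arrays per group, differences well above 0.29 could thus be missed, and no difference is shown to be absent.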
